A study of Mus musculus with 89 samples.

Results

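The choroid plexus (CP) and the hippocampus of the same aged mice were compared in the control arm of a serum infusion experiment. The members were the libraries whose column name gave the arm as Sham, taken from mice with a library of both tissues, which left 8 mice and 16 libraries of the 89 samples in the series. All 8 CP libraries of the arm entered the comparison, and of its 10 hippocampal libraries those of mice H405 and H407, which had no CP library, were left out. The mice were aged wild type males of the C57BL/6 background. Sham mice received saline into the tail vein every 3 days over 25 days. By the authors' account the mice also went through object recognition and foot-shock fear conditioning tests before dissection. The last injections were given during this testing. They were perfused with buffered saline, and 1 hemisphere was dissected into both tissues, so that each mouse gave a pair. The Sham arm was read from the headers of the tables, because the sample labels call every infused mouse by the same treatment, and the labels' sentence on RNA isolation names the cortex, although the dissection they describe gave these tissues. Each mouse gave 1 library per tissue, and the mice were the replicates. A mouse is called here by the name the labels give its CP library, such as C406, and H406, with the same number, was taken as the hippocampal library of the same mouse, which the labels do not state outright.

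The CP is a fold of vascular tissue in the brain ventricles. Its cuboidal epithelium secretes cerebrospinal fluid (CSF) and, joined by tight junctions, separates blood from CSF, while the capillaries beneath are fenestrated and leaky. The hippocampus is brain parenchyma made of excitatory and inhibitory neurons, astrocytes, oligodendrocytes and microglia behind a blood-brain barrier formed by endothelium. In bulk tissue, fewer cells of a type and less RNA per cell cannot be told apart, so a difference below is one of RNA share and not of cells. Values are CPM, read counts per gene after every library was brought to an equal total. A log2 difference is the mean over mice of CP minus hippocampus on log2(CPM + 0.5), with its standard error (SE) from a limma fit with mouse as a block.

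Counted reads, inferred from the CPM values, were 32119641 to 42015173 per CP library and 23231524 to 36353409 per hippocampal library. Thus 1 CPM stood for 32.1 to 42.0 reads in CP and 23.2 to 36.4 in hippocampus. Some libraries stood apart. The CP libraries of mice C406 and C408, and less so that of C409, held less of long transcripts: with genes in 5 groups by length, the median deviation from the tissue mean of the longest group minus that of the shortest was -0.76, -0.61 and -0.19 on the log2 scale in these, against 0.21 to 0.39 in the other 5 CP libraries and -0.185 to 0.24 in the hippocampal ones. The CP library of mouse C434 held more vascular and glial RNA, and more RNA of the neuronal lists, than the other CP libraries, with 363 CPM summed over 16 endothelial genes against 64.5 to 120.4 in the other 7. The hippocampal libraries H434 and H435 held less mitochondrially encoded RNA, 3664 and 5258 CPM in sum against 15361 to 29158.5 in the other 6. Results that changed most without these mice are given with and without them.

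The marker genes went with the tissue labels in every mouse. *Ttr*, which encodes transthyretin, the thyroxine carrier that the CP secretes, had 108312, 124809 and 235998 CPM in CP as the lowest, median and highest values, and 1.83, 7.39 and 57.6 CPM in hippocampus. It took 10.8% to 23.6% of the CPM in CP libraries, with 22.9%, 23.6% and 18.7% in mice C406, C408 and C409 and at most 12.6% in the other 5. *Folr1*, the folate receptor through which the CP passes folate into CSF, had 493, 875 and 1008 CPM in CP and 0, 0.593 and 1.24 in hippocampus, where the library of mouse C432 had no read. *Camk2a*, a calcium-dependent kinase of excitatory neurons, had 0.405, 3.67 and 12.4 CPM in CP and 3988, 5706 and 6766 in hippocampus. *Snap25*, a protein of the vesicle fusion machinery of synapses, had 0.928, 8.11 and 17.0 CPM in CP and 1032, 1503 and 2899 in hippocampus. The tissues did not overlap for any of the 4 genes. The same held for 3003 genes higher and 3497 genes lower in CP among the 12609 tested. The log2 differences were 13.90 ± 0.31 for *Ttr*, 9.59 ± 0.26 for *Folr1*, -10.44 ± 0.43 for *Camk2a* and -7.75 ± 0.30 for *Snap25*. Each kept its direction in 8 of 8 mice, and an exact two-sided sign-flip permutation test gave p = 0.00781 for each, the smallest that 8 mice allow. Low levels were found on the other side too, up to 57.6 CPM of *Ttr* in hippocampus and up to 17.0 CPM of *Snap25* in CP, and the part of RNA from the other tissue in the results was not tested.

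**Figure D1:**
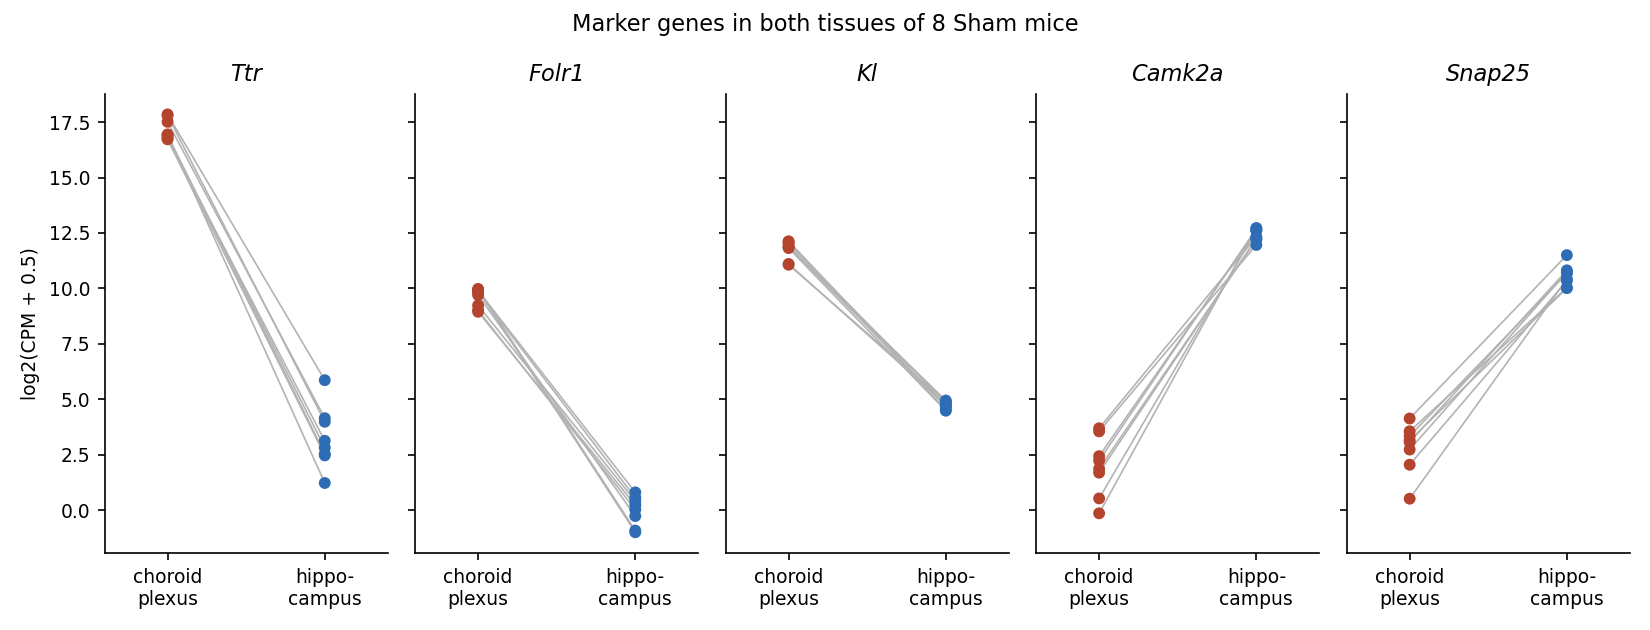
Levels of 5 genes on the log2(CPM + 0.5) scale in the CP (red) and the hippocampus (blue) of 8 Sham mice, with a line joining the tissues of 1 mouse. *Ttr*, *Folr1* and *Kl* sit higher in CP and *Camk2a* and *Snap25* higher in hippocampus in each mouse, without overlap.

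Over the genome the tissues differed widely and in both directions. Of 12609 genes present in both tables, 4860 were higher in CP (38.5%) and 4846 lower (38.4%) at an adjusted p under 0.05, and 2903 were not called. With a test against a 2-fold difference, 2061 genes were higher (16.3%) and 2382 lower (18.9%). The ranges of the tissues over all mice did not overlap for 3003 genes higher and 3497 genes lower in CP. The median log2 difference over all genes was 0.02, from -0.34 in mouse C406 to 0.24 in mouse C434. Differences over 16-fold were found for 257 genes higher in CP and 651 genes lower. Without mice C406 and C408 the counts were 5216 and 4741, and without C409 as well 5155 and 4571. Because these shares are large, counts of single gene groups are read below against 38.5% and 38.4%, or 16.3% and 18.9% for the 2-fold test.

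**Figure D2:**
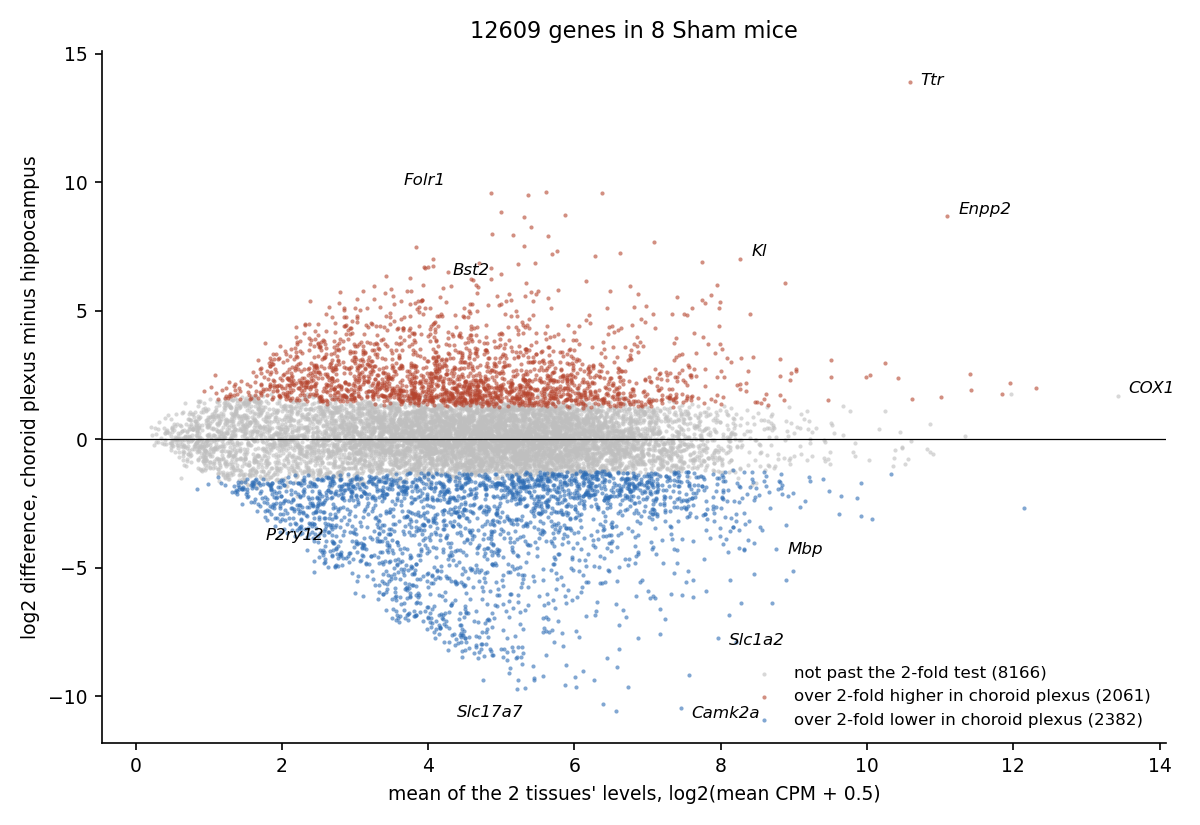
Log2 difference between CP and hippocampus (vertical) against the mean level in both tissues (horizontal) for 12609 genes, with red and blue points for genes past the 2-fold test. *Ttr* at 13.90 and *Camk2a* at -10.44 stand near the ends of the range, with 2061 genes past the 2-fold test above 0 and 2382 below.

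The 15 genes with the largest difference toward CP were mostly genes listed for its epithelium. That list was chosen with earlier results of these data known, so the match is a description and not evidence. After *Ttr* came *F5* (coagulation factor V) at 9.63 ± 0.36, *Clic6*, of the intracellular chloride channel family, at 9.59 ± 0.38, *Folr1*, and *1500015O10Rik* at 9.53 ± 0.24. *Col8a1* (collagen VIII), *Prlr* (the prolactin receptor), *Enpp2* (autotaxin, which makes lysophosphatidic acid) and *Abca4* (a retinoid transporter known from the retina) followed at 8.84, 8.72, 8.69 and 8.66. *Sostdc1*, a secreted antagonist of BMP and WNT signals, was at 8.27, *Trpv4*, an osmosensitive cation channel, at 7.98 and *Rdh5*, a retinol dehydrogenase, at 7.97. *Lbp*, which binds lipopolysaccharide, was at 7.93, *Col9a3* (collagen IX) at 7.66 and *Drc7*, of the regulatory complex of ciliary dynein, at 7.52. *Enpp2* is an example of the size, with 25792, 49402 and 55380.1 CPM in CP and 64.5, 110.3 and 152 in hippocampus as the lowest, median and highest mouse. The lowest CP values were those of C406 and C408. The 15 genes were chosen among those whose tissues did not overlap, so this trait was set by the choice. *Enpp2* lies on chr15:54838901-54952789 and *Folr1* on chr7:101858331-101870788 of GRCm38.

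Of the 30 genes listed for CP epithelium, 15 were in both tables, and 15 of 15 were higher in CP and past the 2-fold test. Their median was 8.69, with medians of single mice from 7.41 (mouse C408) to 9.15 (mouse C432). Because the list was chosen with earlier results of these data known, this count describes its members and tests nothing. The smallest differences in the list were those of *Cab39l*, a scaffold of the STK39 kinase pathway, at 5.55, *Htr2c* (the serotonin receptor 2C) at 5.11 and *Msx1*, a homeobox factor of the roof plate lineage, at 4.27. *Htr2c* is also made by hippocampal neurons, with 11.2 to 73.7 CPM there against 582 to 1299 in CP. The list was further split by the tables: 12 of its genes were given for CP only. Among these were *Kcnj13* (a potassium channel) with 712 to 1081 CPM in the CP libraries, *Aqp1* (the water channel of the apical membrane) with 387 to 1166, *Kcne2* (a potassium channel subunit) with 472 to 646 and *Otx2* (the homeobox factor that maintains CP identity) with 357 to 432.6. The tables held different gene sets, so genes given for 1 tissue were not tested: 1053 genes were in the CP table only and 1831 in the hippocampal table only. The 5 with the highest mean in the CP table alone were *Slc4a5*, *Kcnj13*, *Aqp1*, *Cldn2* and *Kcne2*, and in the hippocampal table alone *Dlgap3*, *Pcsk1n*, *Grin1*, *Icam5* and *Nefl*. *Slc4a5*, a sodium bicarbonate cotransporter, had 492 to 1324 CPM, and *Cldn2*, the claudin of leaky epithelia, 244 to 735. *Dlgap3*, a postsynaptic scaffold, had 389 to 989.5 CPM in hippocampus and *Grin1*, the obligate subunit of NMDA receptors, 437.5 to 664.

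*Kl* encodes α-Klotho, the co-receptor for FGF23, which the CP is known to make. It had 2146, 3765 and 4468 CPM in CP and 21.9, 26.2 and 30.2 in hippocampus (lowest, median and highest mouse), a log2 difference of 7.02 ± 0.16 (higher in 8 of 8 mice; exact sign-flip p = 0.00781). The CP values of mice C406 and C408 were 2197 and 2146, and the other 6 were between 3612 and 4468. *Kl* lies on chr5:150952607-150993817 of GRCm38. Of 12 tested genes of the Klotho, FGF receptor and phosphate transport list, 4 were higher and 4 lower in CP, and all 8 passed the 2-fold test. *Fgfr2* was at 2.21 ± 0.13 and *Fgfr3* at -3.30 ± 0.16, while *Fgfr1*, at -0.05 ± 0.08, was not called, except that it was higher when libraries were scaled without *Ttr* (0.19). The phosphate transporters went opposite ways, *Slc20a2* at 1.46 and *Slc20a1* at -1.36. Of the proteases that shed α-Klotho from the membrane, *Adam17* was higher in CP (1.98), *Bace1* lower (-1.36) and *Adam10* not called (-0.11), though higher without C406 and C408 (0.43). *Fgf1* was lower (-3.45). The list's median was 0.06, against 0.02 for all genes, and it was -0.04 without mouse C436. Without mice C406 and C408 the list had 6 genes higher and 4 lower, with a median of 0.45.

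Ion transport for CSF secretion was higher in part. Of 28 tested genes 17 were higher (14 by the 2-fold test) and 8 lower (5), with a median of 1.49. The carriers and enzymes of the epithelial membranes were higher: *Slc12a2*, the sodium-potassium-chloride cotransporter of the apical side, at 4.14 ± 0.26; *Slc4a2*, the basolateral anion exchanger, at 5.13 ± 0.10; *Car12* and *Car14*, membrane carbonic anhydrases, at 5.32 and 5.77; and *Stk39*, the kinase that activates this cotransporter, at 3.72. *Slc12a2* had 361, 963 and 1139 CPM in CP and 32.3, 46.6 and 57.5 in hippocampus, with the low CP values, 361 and 399, in mice C406 and C408. The β subunits of the sodium pump differed from each other. *Atp1b3* was higher (2.26) and *Atp1b2* lower (-1.13). *Atp1b1*, at -0.36, was not called, but was lower without C432, C434 or C435 (-0.42, -0.41 and -0.41). *Fxyd1*, a regulator of the pump, was at 4.45. Lower in CP were *Aqp4*, the water channel of astrocyte endfeet (-4.13), *Kcna1*, a neuronal potassium channel (-7.40), *Car4* (-4.34) and *Atp2b1*, a calcium pump (-3.18).

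Of 36 tested solute transporters of the blood-CSF barrier, 25 were higher in CP (22 by the 2-fold test) and 5 lower (2), with a median of 2.17. Without C406, C408 and C409, 28 were higher and 5 lower, with a median of 2.53. Next to *Folr1*, the folate carriers *Slc19a1* and *Slc46a1* were at 3.02 and 2.04. *Slco1c1*, a carrier of thyroxine, was at 4.84. *Slc2a12*, a sugar transporter, was at 7.35 with 403.5 to 906 CPM in CP and 2.29 to 6.10 in hippocampus, whereas *Slc2a1*, the glucose transporter GLUT1, was at -0.02 ± 0.15 and was not called. *Slc13a4*, a sulfate transporter, was at 7.13, *Slc31a1*, the copper importer, at 5.99, *Slc39a4*, a zinc importer, at 6.34, and *Slc23a2*, the vitamin C transporter, at 1.94. Of the export pumps, *Abcc1* (2.63), *Abcc4* (3.07) and *Abcg2* (2.29) were higher, and *Abcb1a*, the P-glycoprotein of brain endothelium, was lower (-3.59).

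Secreted proteins showed a mixed picture. Of 28 tested genes 18 were higher (17 by the 2-fold test) and 6 lower (3), with a median of 2.44. *Igf2*, the insulin-like growth factor of the CP, was at 6.08 ± 0.20 with 2306 to 4604 CPM in CP and 25.1 to 129 in hippocampus, and its binding protein *Igfbp2* was at 5.61. *Bmp4*, *Bmp6* and *Bmp7* were at 4.44, 4.11 and 3.21. *Trf* (transferrin) was at 2.44, *Clu* (clusterin) at 1.64, *Ptgds* (prostaglandin D synthase) at 2.44 and *Timp3*, a metalloproteinase inhibitor, at 3.18. *Apoe*, which glia also secrete, had 2192 to 3738 CPM in CP and 1673 to 3628 in hippocampus, overlapped and was not called (0.14 ± 0.18). *Cst3* (cystatin C), *Igfbp4* and *Wnt4* were lower (-0.82, -2.06 and -3.88).

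Of 16 tested genes of epithelial junctions and polarity, 9 were higher (7 by the 2-fold test) and 4 lower (2), with a median of 0.89. The tight junction genes *Cldn1* (6.65), *Tjp3* (5.78), *F11r* (4.35), *Cgn* (4.06) and *Ocln* (3.39) were higher. *Tjp1*, the scaffold also used at endothelial junctions, was not called (-0.34), but was lower without C434 (-0.51). The 4 lower genes were *Jup*, *Pkp2*, *Grhl1* and *Pcdh1*, of which *Pcdh1*, a protocadherin, was at -7.62. A further 10 listed genes, among them *Cldn2*, *Cldn3*, *Cdh1* and *Epcam*, were in the CP table only.

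Genes of motile cilia were higher in CP, whose epithelial cells carry tufts of cilia. Of 41 tested genes 36 were higher, 34 of them by the 2-fold test, 1 was lower and 4 were not called, with a median of 3.46 and medians of single mice from 2.87 to 3.89. *Foxj1*, the master regulator of motile ciliogenesis, had 150.2, 209 and 286 CPM in CP and 7.43, 11.6 and 19.9 in hippocampus (4.03 ± 0.13). The RFX factors that act with it, *Rfx2* and *Rfx3*, were at 2.95 and 1.12. Axonemal dyneins *Dnah6* (5.38), *Dnah9* (1.71) and *Dnah11* (5.47) were higher. So were the radial spoke genes *Rsph1* (4.79), *Rsph4a* (4.01) and *Rsph9* (3.39), the central apparatus gene *Hydin* (3.18), and *Cfap65* (5.71), *Cfap44* (5.33) and *Tekt1* (5.17). *Dnah5*, the lower one, had 0.0784 to 10.7 CPM in CP, with 10.7 in mouse C434, above its range in hippocampus, and at most 0.90 in the other 7, against 2.04 to 7.64 in hippocampus (-1.88 ± 0.49), and was not called without C406, C408 and C409 (-1.50). *Ccdc153* and *Tmem212*, which were not called, had their highest CP values, 22.6 and 16.6 CPM, in the same library. *Ccdc153* was called lower without C434 (adjusted p = 0.0270 by limma), so that without this library 2 genes of the list were lower, and *Tmem212* was called higher without C410 (1.15).

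RFX factors read the X-box, whose core letters GTTGCCA were searched on both strands in the RefSeq promoter windows of GRCm38.p6, 250 bases before to 50 after the start. Of 41 tested cilia genes 33 had a window, and 5 of the 33 held the letters (15.2%) against 4.46% of 27025 windows, 1 per gene. The list was made of genes of motile cilia, so its share is a property of the list and was not read as evidence on these samples. A strict form of the palindrome, GTTGCC, any 2 bases, GG, any base and AAC, was in none of the 33 and in 0.303% of all windows. Looser forms of the palindrome were not searched, so they may be present in these windows. The 250 bases before the start are shown for the 2 of these genes with the largest log2 difference, with the letters, or their reverse complement TGGCAAC, in capitals. *Cfap44* lies on the plus strand with its window at chr16:44394549-44394798, and *Tekt1* on the minus strand at chr11:72361883-72362132.
Cfap44: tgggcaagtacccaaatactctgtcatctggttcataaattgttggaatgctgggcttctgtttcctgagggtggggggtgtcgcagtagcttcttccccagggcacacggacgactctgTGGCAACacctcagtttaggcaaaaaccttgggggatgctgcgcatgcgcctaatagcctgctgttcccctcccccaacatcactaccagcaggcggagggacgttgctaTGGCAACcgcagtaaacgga
Tekt1: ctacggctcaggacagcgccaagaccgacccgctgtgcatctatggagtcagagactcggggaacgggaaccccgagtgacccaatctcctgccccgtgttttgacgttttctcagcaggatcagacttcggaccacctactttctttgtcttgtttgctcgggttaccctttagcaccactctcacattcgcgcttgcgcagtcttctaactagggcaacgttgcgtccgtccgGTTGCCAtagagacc
The last match ended 13 bases before the start in *Cfap44* and 8 bases before it in *Tekt1*. *Cfap44* had 75.8 to 164 CPM in CP and 1.02 to 5.53 in hippocampus, and *Tekt1* 75.2 to 112 and 1.31 to 3.90. A match is a description of letters and not a site.

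Interferon-stimulated genes were higher in CP. These genes are switched on by type I and type II interferons through factors of the STAT and IRF families and encode antiviral proteins and parts of antigen presentation. Of 35 tested genes 29 were higher in CP, 26 by the 2-fold test, 2 were lower and 4 were not called, with a median of 2.97. Medians of single mice ran from 1.28 in mouse C432 to 3.85 in mouse C410. Summed over the 35 genes the CP had 2067 to 6546 CPM and the hippocampus 265 to 640.2 CPM, without overlap. The CP sums of the 8 mice were 2067 CPM (C432), 2144 (C406), 3186 (C434), 3787 (C436), 3856 (C409), 3999.6 (C408), 4151 (C435) and 6546 (C410), and the highest hippocampal sum, 640.2, was that of mouse C435.

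Among the regulators, *Irf7*, which amplifies the type I response, had 14.1, 52.3 and 275 CPM in CP and 0.646, 3.16 and 8.39 in hippocampus (3.70 ± 0.39), and *Irf9* and *Stat2* were at 2.97 and 1.31. *Irf7* in CP was highest in mouse C410 (275) and lowest in mouse C432 (14.1), the same mice that held the extremes of the list. Of the effectors, *Bst2* (tetherin, which holds virions at the membrane) had 128, 265 and 530.1 CPM in CP and 0.276, 4.60 and 10.6 in hippocampus (6.09 ± 0.38). *Ifit1*, which binds viral RNA, had 15.2, 73.4 and 256 and 0.908, 3.21 and 8.17 (4.38 ± 0.38). *Ifi27l2a*, *Lgals3bp*, *Ifitm3*, which blocks viral entry, and *Usp18*, which removes ISG15 and dampens the response, were at 5.39, 5.11, 4.25 and 4.50. *Isg15* itself, a ubiquitin-like modifier, was at 3.06 ± 0.45, with a mean of 30.3 CPM in CP and 2.35 in hippocampus, and the tissues overlapped. *Ifi27* varied less among CP libraries, 682 to 1209 CPM against 26.9 to 42.4 in hippocampus. The 2 lower genes were the immunoproteasome subunit *Psmb8* (-0.72) and *Gbp2* (-1.01), both with overlap between the tissues, and *H2-D1*, *Ifit2*, *Oas2* and *Psmb9* were not called. Both lower calls were lost without C409, C410, C432, C435 or C436 (*Psmb8* -0.78 to -0.49, *Gbp2* -0.95 to -0.80). Without C435 *H2-D1* and *Psmb9* were higher (0.34 and 0.94).

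Interferon factors bind the interferon-stimulated response element (ISRE), searched here as GAAA, any 2 bases and GAAA. The same promoter windows were found for 28 of the 35 genes, and 15 of the 28 (53.6%) held these letters on either strand, against 3.49% of 27025 windows. The list was made of genes known to answer interferon, so this share is a property of the list and was not read as evidence on these samples. The 250 bases before the start are shown for the 4 genes with a match there and the largest log2 difference, to show the element next to the values above, with the ISRE letters or their reverse complement in capitals. Windows are chr8:71537473-71537722, minus strand for *Bst2*, chr7:104465194-104465443, minus strand for *Trim30a*, chr19:34640639-34640888, plus strand for *Ifit1* and chr3:142559794-142560043, plus strand for *Gbp3*.
Bst2: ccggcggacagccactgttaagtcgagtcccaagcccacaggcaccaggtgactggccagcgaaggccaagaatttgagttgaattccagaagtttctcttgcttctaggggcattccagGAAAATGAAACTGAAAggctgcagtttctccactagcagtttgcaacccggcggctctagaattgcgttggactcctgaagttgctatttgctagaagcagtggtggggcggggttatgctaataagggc
Trim30a: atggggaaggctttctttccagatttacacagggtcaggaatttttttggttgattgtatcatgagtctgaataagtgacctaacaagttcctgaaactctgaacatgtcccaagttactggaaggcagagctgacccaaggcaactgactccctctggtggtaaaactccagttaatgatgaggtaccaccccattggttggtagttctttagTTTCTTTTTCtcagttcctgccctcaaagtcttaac
Ifit1: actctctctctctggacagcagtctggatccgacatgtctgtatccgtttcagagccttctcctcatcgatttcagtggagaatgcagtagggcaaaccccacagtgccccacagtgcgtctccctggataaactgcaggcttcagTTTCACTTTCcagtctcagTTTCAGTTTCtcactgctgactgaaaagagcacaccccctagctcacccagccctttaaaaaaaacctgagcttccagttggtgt
Gbp3: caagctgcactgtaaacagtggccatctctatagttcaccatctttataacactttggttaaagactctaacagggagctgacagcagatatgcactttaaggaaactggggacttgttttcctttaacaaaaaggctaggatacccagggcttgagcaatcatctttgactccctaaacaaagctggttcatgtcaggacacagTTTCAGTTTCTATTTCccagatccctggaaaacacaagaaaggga
*Bst2*, *Ifit1* and *Gbp3* each held 2 matches, those of *Bst2* and *Gbp3* overlapping, and *Trim30a* held 1. *Trim30a* had 11.7 to 117 CPM in CP and 0.0825 to 2.75 in hippocampus (4.43 ± 0.39), and *Gbp3* had 15.1 to 204 and 1.76 to 8.36 (3.68 ± 0.39). All 4 genes had tissues without overlap, as had 3003 of the 12609 genes tested that were higher in CP. The 4 were picked for large differences, so this says little about them.

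**Figure D3:**
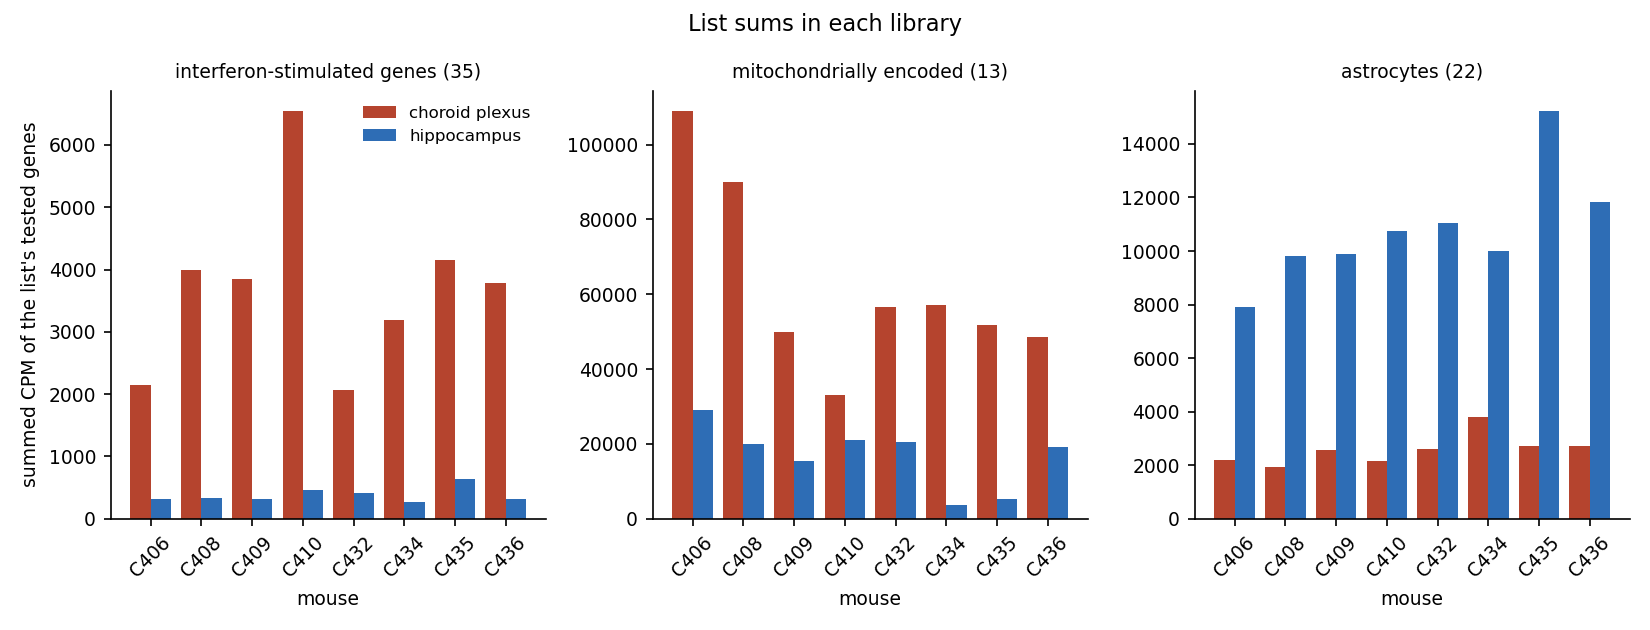
Summed CPM of 3 gene lists in the CP (red) and the hippocampus (blue) of each Sham mouse; the number of tested genes is in each panel's title and mice are named by their CP library. The interferon-stimulated genes sum to 2067 to 6546 CPM in CP and to at most 640.2 in hippocampus, the mitochondrially encoded genes are low in the hippocampus of mice C434 and C435, and the astrocyte sum in CP is highest in mouse C434.

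Border-associated macrophages and antigen presentation had 12 tested genes of 27 listed, of which 7 were higher in CP and 2 lower, and 5 of the 7 were of MHC class II presentation. Summed over the 12 genes, the level was 2467 to 4024 CPM in CP and 1729 to 3750 in hippocampus, and the tissues overlapped. Most of the sum in both tissues was *Apoe*, a listed gene that was not called. The overlap of the sums is therefore mainly that of *Apoe* and says little of the other members. The higher ones were led by the MHC class II genes *H2-Aa* (4.42 ± 0.31), *H2-Eb1* (4.11), *H2-DMb1* (3.55) and *H2-Ab1* (3.40) and by their invariant chain *Cd74*, with 44.9, 87.2 and 159 CPM in CP and 2.50, 5.39 and 20.9 in hippocampus. *Mrc1*, the mannose receptor that marks these macrophages, was at 1.08 ± 0.39 with 1.28 to 16.5 CPM in CP, and its highest value was that of mouse C434. Its log2 difference was 0.71 without C434, and it was not called without C408 (0.91). *Ciita*, the activator of class II genes, was not called (-0.32), and *H2-DMa* was lower (-1.42). The macrophage markers did not go one way. *Stab1*, a scavenger receptor, was lower in CP (-1.23 ± 0.29), with 3.18 to 31.8 CPM against 10.9 to 35.0 and the highest CP value in mouse C434, and *Maf* was higher (1.27). *F13a1* was not called (-0.28), and was lower without C434 (-0.74). *Cd163*, a scavenger receptor, was in the hippocampal table only, with 0.433 to 3.73 CPM. The macrophage genes *Ms4a7* (0.498 to 4.09 CPM) and *Folr2* (4.78 to 27.9 CPM) were in the CP table only. Homeostatic microglia genes were lower, 21 of 23 tested, 16 by the 2-fold test, with a median of -2.33. *P2ry12* and *Tmem119*, which set microglia apart from other macrophages, had 0.666 to 3.15 and 1.46 to 6.46 CPM in CP against 17.5 to 32.0 and 25.2 to 69.2. The receptors *Csf1r* and *Cx3cr1*, shared by macrophages, were also lower (-2.81 and -3.14). *Ltc4s*, the leukotriene C4 synthase, was the 1 listed gene higher in CP (4.97 ± 0.26).

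Neuronal RNA made the other pole. Of 36 tested pan-neuronal and synaptic genes 36 were lower in CP, 35 by the 2-fold test, with a median of -6.89 and medians of single mice between -7.21 and -5.95. Summed, they had 677 to 912 CPM in CP and 24671 to 27957 in hippocampus. The largest differences were those of *Syn1* (-8.51), a coat protein of synaptic vesicles, *Cplx1* (-8.47) and *Bsn* (-8.46), of the release site. Some listed genes were well above 0 in CP. *Vamp2* had 84.2 to 136 CPM in CP, *Eno2* 77.0 to 152, *Dlg4* 76.2 to 93.4, *Sv2a* 56.3 to 108 and *Shank2* 31.2 to 89.5 CPM there.

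Of the 15 genes with the largest difference toward hippocampus, several belong to the excitatory synapse. *Ddn*, a postsynaptic protein, was at -10.59 ± 0.35, *Camk2a* at -10.44 ± 0.43 and *Slc17a7*, the vesicular glutamate transporter VGLUT1, at -10.31 ± 0.34. *Slc17a7* had 0.0476, 2.04 and 5.58 CPM in CP and 2120.5, 2626 and 3616 in hippocampus. They were followed by *Nptx1* (-9.71), which clusters AMPA receptors, *Stum* (-9.69), *Nrgn* (-9.66), a calmodulin-binding protein of spines, *Agap2* (-9.65), *Hpcal4* (-9.58), the junctophilins *Jph4* (-9.38) and *Jph3* (-9.37), *Nell2* (-9.38), *Camk2b* (-9.36), *Camkv* (-9.28), *Eef1a2* (-9.26), the elongation factor of neurons and muscle, and *Adgrb2* (-9.22).

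Of 44 genes listed for hippocampal excitatory neurons 16 were in both tables, 15 lower and 1 higher in CP, and 28 were in the hippocampal table only. The higher one was *Dsp* (desmoplakin), which marks granule cells in hippocampus and desmosomes in epithelium, with 47.4 to 114 CPM in CP and 18.8 to 57.1 in hippocampus. *Gria1* and *Gria2*, subunits of AMPA receptors, were at -9.01 and -7.95, and *Gria1* reached 19.6 CPM in the CP of mouse C434 against at most 2.18 in the other 7. *Zbtb20* (-0.91) and *Emx2* (-1.54) differed least among the 15, and *Zbtb20* was not called without C406 and C408 (-0.65). Of 28 listed genes for inhibitory neurons 7 were tested and 6 were lower, with *Gad1* and *Gad2*, which make GABA, at -7.48 and -6.69. C434 stood highest here too, with a single-mouse median of -4.34 against -7.88 to -5.95 and a CP sum of 73.8 CPM against 6.67 to 37.75, and without it the list's median moved from -6.69 to -6.95. Its median was also the highest for the excitatory list, -5.47 against -6.96 to -6.22, and for the pan-neuronal list, -5.95 against -7.21 to -6.45. *Erbb4* was not called (-0.70; higher without C406, C408 and C409, at 0.52), with 1.04 to 30.0 CPM in CP and 13.6 to 28.7 in hippocampus. Activity-induced genes were lower for 14 of 15 tested (12 by the 2-fold test; median -2.99). *Arc*, *Egr1* and *Junb* were at -7.29, -6.22 and -4.92, and *Btg2* was not called (0.03).

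Glial genes were lower in CP, with 1 library apart. Of 22 tested astrocyte genes 18 were lower, all 18 by the 2-fold test, 3 were higher and 1 was not called, with a median of -4.93. The single-mouse median was -1.79 in mouse C434 and between -5.94 and -4.67 in the other 7, and without mouse C434 the list's median was -5.41. *Gfap*, the intermediate filament of astrocytes, had 274 CPM in the CP of mouse C434 and 2.37 to 14.5 in the other 7, against 464 to 1709 in hippocampus (-6.12 ± 0.58). *Aqp4* in the CP of mouse C434 reached 146 CPM, above its own hippocampus (77.6), with at most 8.28 in the other CP libraries. *Slc1a2*, the glutamate transporter GLT-1, was at -7.72 ± 0.51. The 3 higher genes were *Slc7a10* (3.79 ± 0.11), *Sox9* (0.98) and *Aldh1l1* (0.71). *Slc7a10*, a transporter of small neutral amino acids, had 382 to 514 CPM in CP and 24.4 to 40.0 in hippocampus.

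Of 20 tested genes of oligodendrocytes and myelin 17 were lower (16 by the 2-fold test) and 3 higher, with a median of -4.36 (-4.58 without mouse C434). *Mbp*, the myelin basic protein, had 74.7 to 162 CPM in CP and 1284 to 2878 in hippocampus. The 3 higher genes were *Trf*, *Cryab* (1.93) and *Gsn* (1.71), which other cells also make. Of 9 tested genes of oligodendrocyte precursors 7 were lower and 1, *Pdgfra*, was higher (0.38 ± 0.14), a receptor that fibroblasts also carry, and was not called without C410, C432, C434 or C435 (0.28 to 0.37). The precursor list's median was -5.18 and -5.48 without mouse C434.

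Vascular and stromal genes differed member by member. Of 16 tested endothelial genes shared by both tissues 13 were lower in CP (5 by the 2-fold test) and 1 higher, with a median of -1.54. *Pecam1*, the adhesion molecule of endothelium, had 3.35 to 22.5 CPM in CP and 14.5 to 48.9 in hippocampus (-1.83), with the highest CP value in mouse C434. *Emcn* (endomucin) was higher (1.35 ± 0.23), and *Kdr*, the VEGF receptor 2, was not called (0.31), but was higher without C406 (0.41). Of 7 tested genes of fenestrated endothelium 2 were higher and 3 lower. *Plvap*, the diaphragm protein of fenestrae, was at 0.62 ± 0.18 with 4.94 to 22.1 CPM against 1.96 to 9.57, and *Plpp1* was at 2.59, while *Plpp3*, also an astrocyte gene, was at -3.57; without the block by mouse *Plvap* was not called (adjusted p = 0.0708 by limma). Of 18 tested genes of blood-brain barrier endothelium 8 were lower and 6 higher. The barrier genes *Cldn5* (-4.27 ± 0.37), *Mfsd2a* (-2.80) and *Slc7a5* (-2.02) were lower, and those higher included *Slco1a4* (3.50) and *Slc22a8* (3.33), organic anion transporters that are also in the list of the blood-CSF barrier. That list's median, -0.17, was -0.32 without C434, and 0.05 both when libraries were scaled without *Ttr* and without mice C406 and C408. Of 12 tested mural genes 6 were lower and 6 not called, with the pericyte genes *Rgs5* and *Pdgfrb* at -2.71 and -1.88, and 10 were lower without C434.

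Of 38 tested genes of fibroblasts and extracellular matrix 19 were higher (15 by the 2-fold test) and 13 lower (5), with a median of 0.46 that ran from -0.22 to 2.07, the latter in mouse C434, and was 0.26 without that mouse. Collagens went both ways, also within a type. *Col8a1*, *Col8a2*, *Col9a3* and *Col18a1* were at 8.84, 7.20, 7.66 and 4.67. The basement membrane collagens *Col4a1* and *Col4a2* were at -2.28 and -2.65, and *Col6a1*, *Col6a2*, *Col6a3*, *Col12a1* and *Col15a1* were also lower. Of the fibrillar collagens, *Col1a2*, *Col5a1* and *Col5a2* were called higher, and *Col1a1* and *Col3a1* were not called (-0.34 and 0.55). *Col1a1* was lower without C434 (-0.68). *Ogn* (osteoglycin) and *Lum* (lumican), small proteoglycans of stroma, were at 4.30 and 2.28. *Fn1* (fibronectin) had 1.62 to 117 CPM in CP, the highest in mouse C434, against 33.0 to 75.0 in hippocampus (-3.03).

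**Figure D4:**
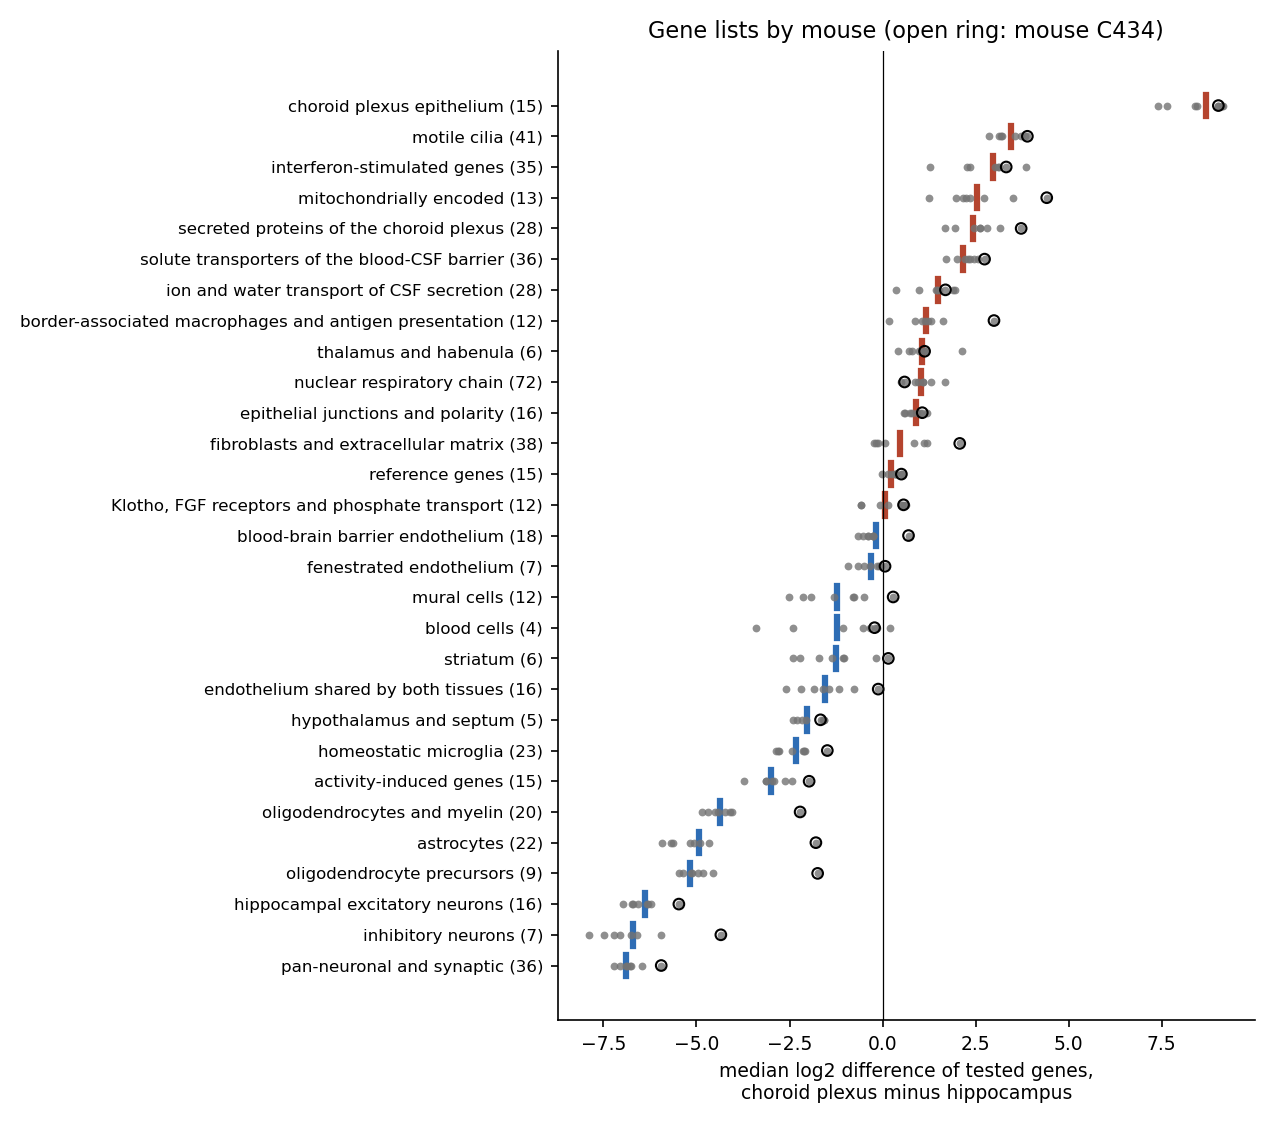
Median log2 difference, CP minus hippocampus, of the tested genes of each of 29 lists, with a bar for the median of the genes' means over mice, grey points for single mice and an open ring for mouse C434; the number of tested genes is in brackets. The lists run from -6.89 for pan-neuronal and synaptic genes to 8.69 for CP epithelium, and mouse C434 lies to the right of the other mice for astrocytes, oligodendrocytes and oligodendrocyte precursors.

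Mitochondrial transcripts were higher in CP, an epithelium rich in mitochondria. Of 13 mitochondrially encoded genes 13 were higher, 11 by the 2-fold test, with a median of 2.54 and single-mouse medians from 1.25 in mouse C410 to 4.41 in mouse C434. All 13 were also called higher with any 1 mouse left out, with medians from 2.28 (without C434) to 2.72 (without C410), and with both C434 and C435 left out, with a median of 2.08. Their sum was 33202 to 109005 CPM in CP, the highest in mice C406 and C408, and 3664 to 29158.5 CPM in hippocampus. *COX1*, of cytochrome c oxidase, had 10263, 16876 and 30252 CPM in CP and 1167, 7724 and 11420.2 in hippocampus and overlapped (1.70 ± 0.36). The 13 genes did not move as 1 block. The neighbours *COX2*, *ATP8*, *ATP6*, *COX3*, *ND3* and *ND4L* were at 5.44, 5.11, 5.36, 6.01, 3.51 and 4.55, and the other 7 were between 1.70 (*COX1*) and 2.54 (*ND2*). These 6 genes held 5.20% to 10.1% of the mitochondrially encoded CPM in CP and 0.522% to 1.58% in hippocampus. The grouping was made after the values were seen. Nuclear copies of mitochondrial DNA resemble some of these genes closely, and the counting may divide or drop reads that fit both, so the size of the difference for the 6 genes is uncertain.

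**Figure D5:**
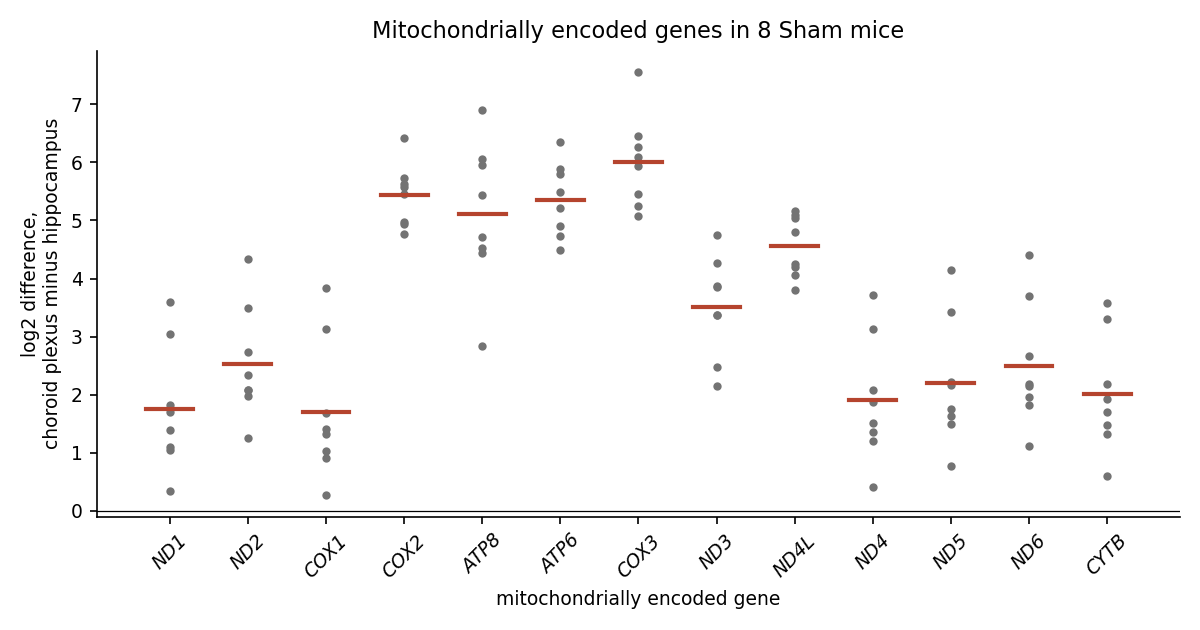
Log2 difference, CP minus hippocampus, of the 13 mitochondrially encoded genes in the order of the mitochondrial genome, with grey points for 8 Sham mice and a bar for their mean. The genes from *COX2* to *ND4L* lie at 3.51 to 6.01 and the other 7 at 1.70 to 2.54.

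The nuclear genes of the respiratory chain went the same way by a smaller amount, 57 of 72 tested higher (23 by the 2-fold test) and 3 lower, with a median of 1.04 and single-mouse medians from 0.48 (mouse C435) to 1.69 (mouse C406). Their sum had 11827 to 19427 CPM in CP and 6980.4 to 9276 in hippocampus, without overlap. Without C406 and C408 the median was 0.86, with 56 higher and 5 lower, and without C409 as well 0.77, with 53 and 5; without C434 and C435 it was 1.21, with 60 and 2. The lower ones were *Ndufa6*, *Ndufa10* and *Ndufv1*, of complex I, at -0.53, -0.45 and -0.44. *Ndufa6* was not called without C409, C410, C432, C434, C435 or C436 (-0.57 to -0.40), and the other two were not called when libraries were scaled without *Ttr* (-0.21 and -0.20). The median log2 difference over all genes fell with transcript length, from 0.28 in the shortest of 5 length groups to -0.17 in the longest; the part of transcript length in this list's difference was not tested.

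Of 15 reference genes 7 were higher and 2 lower, with a median of 0.23. *Sdha* (-0.03 ± 0.13), *Tbp* (0.13), *Eef1a1* (-0.07) and *Rplp0* (0.23) were not called, and *Actb* was lower (-1.70) with 403.1 to 753 CPM against 1421 to 1951. *Gapdh* (7.98 to 28.0 CPM in CP and 4.38 to 12.4 in hippocampus), *Ppia* and *Pgk1* (3.19 and 3.40) have near-identical processed pseudogenes, and their values are uncertain for that reason. *Gapdh* (0.76) was not called without C406 and C408 (0.50).

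Lists of neighbouring brain regions held few tested genes. Of 6 for striatum 4 were lower and 1, *Ppp1r1b* (DARPP-32), was higher, with 671 to 973 CPM in CP and 48.2 to 83.3 in hippocampus (3.70 ± 0.13). Of 6 for thalamus and habenula 4 were higher and 2 lower, the higher ones being *Zic4* (3.74), *Zic1* (2.93), *Prkcd* (1.32) and *Tcf7l2* (0.77). *Zic2*, in the list for hypothalamus and septum, was also higher (1.90), and the other 4 tested genes of that list were lower. The ZIC factors are also known from the dorsal midline, from which the CP arises. Of 4 tested blood cell genes 3 were lower, of which *Hba-a1*, a hemoglobin chain (-1.33), was not called without C406, C409, C410, C432 or C436 (-1.49 to -0.88), nor without C406, C408 and C409, and the summed level was 3.54 to 37.7 CPM in CP and 7.95 to 86.3 in hippocampus.

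The genes whose within-mouse difference varied most went with single libraries. Among genes with a mean of at least 5 CPM in each tissue, the 10 with the largest SD over mice were *Lmbrd2*, *C3*, *Aldh1a2*, *Myoc*, *Aqp4*, *Megf9*, *Gfap*, *Itgb8*, *Lnpep* and *Uhmk1*. For 5 of these the CP libraries of mice C406, C408 and C409 were low. *Megf9* had 2.07, 1.71 and 21.05 CPM there and 61.9 to 72.1 in the other 5, and *Itgb8*, an integrin that activates TGF-β, had 8.56, 8.10 and 58.6 against 219 to 298. *Lmbrd2*, *Lnpep* and *Uhmk1* were likewise lowest in these 3 libraries. The hippocampal side varied too. *Lmbrd2* had 12.3 and 10.9 CPM in H434 and H435 against 20.1 to 38.7 in the other hippocampal libraries. *Lnpep* had 15.7 and 18.2 CPM in H434 and H435 against 28.6 to 48.6. Merged exon lengths of these 5 genes were 8101 to 14144 bases, longer than 81.2% to 96.5% of the genes tested. For the other 5 the CP library of mouse C434 was high. *C3*, the central complement component, had 43.3 CPM there against at most 5.94, *Aldh1a2*, which makes retinoic acid in meninges, 51.4 against at most 1.61, and *Myoc* (myocilin) 58.1 against at most 1.29. *C3* was also high in H435, 83.3 CPM against at most 24.3 in the other 7 hippocampal libraries. *C3* (-1.61) was not called without C409, C410, C432, C435 or C436 (-1.52 to -1.31), and *Aldh1a2* (-1.33), not called over all mice, was lower without C434 (-2.05). *Lmbrd2* (-0.67), not called, was higher without C406, C408 and C409 (0.85) and lower without C434 and C435 (-1.50). *Lnpep* (-1.17), also not called, was lower without C434 or C435 (-1.48 and -1.45). Without mice C406 and C408 *Megf9* moved from -1.94 to -0.85, *Uhmk1* from -2.41 to -1.48 and *Itgb8* from 1.88 to 2.87.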

How the data were processed

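RNA-seq was made from bulk CP and hippocampus of infused mice. The authors mapped reads to mm10 with Subread, assigned them to genes by featureCounts and deposited CPM values for each library. The log2 fold changes, p-values and FDR of their own comparisons, given in the same tables, were not used. The rule by which they left out low genes is not given in the sources used here. The counting is not stated to use strand. Date-like symbols were restored for 19 genes of the CP table and 21 of the hippocampal table. CPM multiplied by the library total gave whole reads for 100% of values (tolerance 0.05 of a read).

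The main test was limma 3.58.1 with trend (R 4.3.3) on log2(CPM + 0.5), CP minus hippocampus, with mouse as a block, over the 12609 genes in both tables, with Benjamini-Hochberg adjustment and a threshold of 0.05. A second call tested against a 2-fold difference (limma treat). On this scale the difference of low genes is understated. Tables of the tissues were deposited separately, so a tissue difference also holds what differed between their preparation and sequencing, and these cannot be told apart. The pairing takes libraries with the same number as 1 animal, since both tissues were dissected from 1 hemisphere. Libraries with the same number had correlations of their deviations from the tissue means of -0.12 to 0.21, over 0.1 for 2 of 8 mice. Of the 8 CP libraries, 1 correlated best with the hippocampal library of its own number. The pairing therefore rests on the numbers and not on these correlations.

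Named were the 4 markers, members of 29 gene lists, the 15 genes with the largest difference each way among those past the 2-fold call with a mean of at least 1 CPM and no overlap, the 10 genes of at least 5 CPM in each tissue whose difference varied most, and the 5 highest genes of each table alone. Members and lists were chosen with earlier results of these data known, so no list carries a p-value. A few members of the lists are counted but not reported here by name. Fits were tested on simulated data. Alternatives were pseudocounts of 0.1 and 1, a filter at 1 CPM, TMM and median-ratio factors, a total without *Ttr*, no block, all 34 infused mice with both tissues, edgeR 4.0.16 and DESeq2 1.42.0 on the whole reads, and each mouse left out. Leaving out mice C406 and C408, C406, C408 and C409, or C434 and C435 was chosen after seeing the data. Coordinates and promoter sequences are those of RefSeq on GRCm38.p6, and merged exon lengths were found for 98.8% of the genes tested.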

Additional observations from a re-analysis of the deposited data

Results flagged for a closer look

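In groups of 8 mice, a value was set apart where its gap to the nearest other mouse was large against the whole range of the group, which chance gives in about 1 of 20 groups; 5 of 33 groups were set apart. For 4 of these the mouse was C434. Its median log2 difference was -1.79 for astrocytes, -2.22 for oligodendrocytes and myelin, -1.74 for oligodendrocyte precursors and 0.70 for blood-brain barrier endothelium. The medians of the other 7 mice were between -5.94 and -4.67 for astrocytes and between -4.85 and -4.06 for oligodendrocytes and myelin. For thalamus and habenula genes mouse C408 stood apart with a median of 2.14. Outside the comparison, *Ttr* had 262.9 CPM in the hippocampal library H405, which has no CP library, against 1.83 to 57.6 CPM in the 8 mice compared.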

How the results depend on the processing

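The counts of genes higher or lower in CP, with and without the 2-fold limit, stayed within 1.5 times the reported ones under every alternative run. Without the replicate block 4897 genes were higher and 4895 lower. With each mouse left out in turn 4626 to 5040 were higher and 4653 to 4903 lower, and 1943 to 2184 and 2261 to 2442 past the 2-fold test. Without C434 and C435, 4574 were higher and 4841 lower. With edgeR's quasi-likelihood test 4911 were higher and 4784 lower, and with DESeq2 5131 and 4836. Scaling to the total without *Ttr* moved the median over all genes to 0.25, with 5789 genes higher and 4192 lower. Of 574 named genes 488 kept their call throughout, and over 12037 values 106 lost the call and 148 gained it; *Ndufa6*, *Psmb8*, *Ndufb3* and *Hba-a1* lost it most often. No called gene turned its direction, but 6 values of 5 genes not called over all mice were called the opposite way. *Adam10* was at 0.43 without C406 and C408, and without C409 as well *Adam10* was at 0.56, *Erbb4* at 0.52, *Lmbrd2* at 0.85 and *Slc35f1* at 0.27. *Fgfr1* was at 0.19 when scaled without *Ttr*. Of 609 list medians 9 moved by more than the SD between mice, and 6, of 3 lists near 0 (fenestrated and blood-brain barrier endothelium, and the Klotho list), had another sign. The cause of these changes was not tested. Genes near 1 CPM in both tissues rest on 23.2 to 42.0 reads per library.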

Other observations

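The hippocampal libraries of the Sham mice H405 and H407, which had no CP library, were in no comparison. Besides *Ttr*, *Enpp2* had 279.3 CPM in H405 and 173.4 in H407, against 64.5 to 152.5 CPM in the 8 mice compared. *Kl* had 35.4 and 32.0 CPM against 21.9 to 30.2, and *Folr1* 1.54 and 0.746 against 0 to 1.24. *Clic6*, at 7.03 and 3.48 CPM, and *Igf2*, at 28.2 and 38.5 CPM, lay within the range of the 8 mice. *Snap25* had 3098 and 2855 CPM, against 1032 to 2899.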
